A study of Mus musculus with 18 samples.

Results

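The genes described here are named for the proteins of the cytosolic ribosome: every protein-coding row of the deposited table whose mouse symbol is Rpsa, Rplp0, Rplp1, Rplp2, or Rpl or Rps followed by a number. Of 21015 rows, 88 met this definition. Another 17 rows with similar names were set aside as pseudogene names, S6 kinases or Rps19bp1. Rpl26l1 was not analysed here. Of the 88 genes, 86 had counts high enough to be tested. Rpl32l, with 10 counts in 8 of the 18 libraries, and Rpl10l, with 7 counts in 4, were not. Of the tested genes, 52 have symbols that start with Rpl and 34 with Rps, called large-subunit and small-subunit members below. This split is by name only, and it counts copies such as Rpl7l1, Rps27rt and Rps23rg1.

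Total RNA was sequenced from tumours of MC38 OVA cells, a mouse colon carcinoma line engineered to carry ovalbumin as antigen. Hosts were wild type (WT) or lacked the alpha-2A adrenergic receptor gene (Adra2a KO). There are 3 libraries in each of 6 groups, namely the vehicle groups WT-Control and KO-Control, the clonidine groups WT-Clonidine and KO-Clonidine, and the guanabenz groups WT-Guanabenz and KO-Guanabenz. Clonidine and guanabenz, both agonists of alpha-2 adrenergic receptors, or the vehicle PBS were injected into the peritoneum each day. Tumours were taken 7 days after treatment, and the age is given as 10 weeks. All groups carry the same implanted tumour line, which has its own genome, so only host cells lack Adra2a. The labels give no dose, no host strain, no part of Adra2a that was deleted and no tie between libraries and animals. Without that tie a p-value reflects only how far libraries of a group differed, which may be technical spread. The control libraries are entered as untreated although the protocol names PBS. The 3 libraries titled KO-Guanabenz are also entered as untreated, and the title was followed.

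Ribosomal proteins are made in matched amounts and assembled with ribosomal RNA in the nucleolus, so their genes are among the most highly and evenly expressed in growing cells. Their mRNAs typically begin with a run of pyrimidines at the 5′ end, the terminal oligopyrimidine (TOP) tract, through which the kinase mTOR and the RNA-binding protein Larp1 control their translation and stability. Growing tumour cells and activated lymphocytes both make ribosomes at a high rate.

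To show what such a tract looks like in these genes, 30 bases are printed for some members. They hold the tract, or are centred on the annotated transcript start where there is none. First come the 5 members whose levels varied most over the 6 groups by test. Rps7 and Rps27, each named in the drug comparisons below, and Rpl10, whose level did not follow the others, come after them. Sequences are from RefSeq on GRCm38.p6 and read 5′ to 3′ along the gene. Capitals mark a C followed by at least 7 further pyrimidines, which gives a tract of 8 bases or more.
Rps28, chr17:33824548-33824577, minus strand: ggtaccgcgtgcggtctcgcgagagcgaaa
Rpl13, chr8:123102324-123102353, plus strand: cgtgacgtcaCTTCCCTTTCgcctgatttt
Rps15, chr10:80292446-80292475, plus strand: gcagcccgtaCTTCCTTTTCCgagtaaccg
Rps6, chr4:86857349-86857378, minus strand: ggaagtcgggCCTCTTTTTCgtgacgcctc
Rps16, chr7:28350632-28350661, plus strand: aattcacacgtCCCCTCTCaggcttcgacg
Rps7, chr12:28635911-28635940, minus strand: ctgtccccaCCTCTTTTCTTCCgccacccg
Rps27, chr3:90213632-90213661, minus strand: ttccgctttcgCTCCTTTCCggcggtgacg
Rpl10, chrX:74270836-74270865, plus strand: cgtgagcaggcgtgggagcgtCTCTTTTCC

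Of these 8 genes only Rps28 had no tract within 50 bases of its annotated start. In Rps6 the tract began 1 base before that start, and in Rps27 it began 2 bases before it. In Rps16 it lay 46 bases upstream and in Rps15 it began 25 bases downstream, so the annotated start and the tract did not always coincide. Over the whole set, 68 of the 88 genes had promoter windows in the RefSeq table, 80 windows in all. A tract on the sense strand within 50 bases of the start was found in 76.2% of these windows, against 28.9% of 20055 windows of the protein-coding genes in the table and 32.0% of 75 windows of mitochondrial ribosomal proteins. The ETS-type motif CCGGAAG, searched on both strands over 300 bases, was in 33.8% of the members' windows and 12.0% of all windows. For the YY1-type motif AAGATGGC, also on both strands, the shares were 10.0% and 3.16%. The E-box CACGTG on both strands was in 10.0% and 8.15%, and TATAAA, searched on the sense strand in the 50 bases before the start, in 1.25% and 3.16%. No overlap between motifs was removed. A match is a description of the letters and not a binding site.

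Library totals, in units of 1e6 counts, were lowest in WT-Guanabenz 1 (54.7) and highest in WT-Control 3 (491.1), so counting error is small for most members. Adra2a stood at 0.286 to 0.589 counts per 1e6 counts (CPM) in WT libraries and 0.0917 to 0.293 in KO libraries, ranges that touch. The tissue is labelled tumour, yet of the 5 epithelial markers Krt8, Krt18 and Cldn7 averaged below 1 CPM in every group. Epcam was below 1 CPM in 3 groups and at 1.07 to 1.48 in the others, and Cdh1 averaged 3.903 to 6.048 CPM. Fibroblast markers summed to 5854 to 10717 CPM per library and macrophage markers to 1765 to 2382 CPM. Transcripts of Y-linked genes were present in 3 of 3 WT-Control libraries, in none of 3 KO-Clonidine libraries and in 2 of 3 libraries of each other group.

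Together the 88 genes took 5.18% to 6.64% of all counts in a library. In WT-Control the share was 6.42%, 5.77% and 5.96%, or 6.05% ± 0.335 (SD, n = 3). In WT-Clonidine it was 5.69%, 5.41% and 5.33%, or 5.48% ± 0.189. Every WT-Clonidine library lay below every WT-Control library. In WT-Guanabenz the share was 5.18%, 5.30% and 5.73%, or 5.40% ± 0.292, again below all 3 controls. KO-Control libraries held 6.33%, 6.48% and 6.15%, or 6.32% ± 0.166, and KO-Clonidine libraries held 6.31%, 6.64% and 6.19%, or 6.38% ± 0.235. These KO groups overlapped. KO-Guanabenz libraries, with the label conflict given above, held 5.24%, 5.31% and 5.66%, or 5.40% ± 0.222, below all 3 KO-Control libraries. From highest to lowest the order was KO-Clonidine, then KO-Control, WT-Control and WT-Clonidine, and last WT-Guanabenz and KO-Guanabenz. Of the neighbours in this order, only WT-Control and WT-Clonidine had ranges that did not overlap. In bulk tissue, fewer cells rich in these mRNAs and less of the mRNA per cell cannot be told apart.

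**Figure D1:**
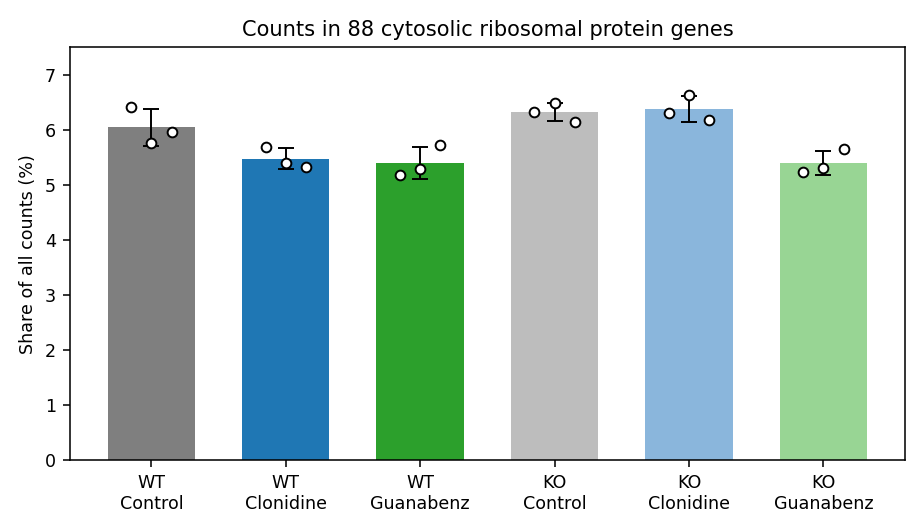
Percent of all counts that fell in the 88 cytosolic ribosomal protein genes, by group. Bars are means of 3 libraries, points are the libraries and error bars are the SD; WT-Clonidine, WT-Guanabenz and KO-Guanabenz lie at means of 5.40% to 5.48%, and the other groups at means of 6.05% to 6.38%.

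Levels between genes were compared per kilobase (kb) of the median transcript length, where the tested members had a median of 855 CPM per kb against 7.21 for all tested genes with a length. Of the 100 genes highest on this scale, 48 were members. Rps2, on the mRNA entry side of the small subunit, was highest at 2810 CPM per kb, followed by Rps18 at 2287. The stalk proteins Rplp1 and Rplp0, which recruit elongation factors, had 2048 and 1863 CPM per kb, and Rpl41, the smallest ribosomal protein, had 1800. At the other end were retrogenes and tissue-restricted copies. Rpl3l, the form found in striated muscle, had 0.352 CPM per kb. Rps23rg1, a copy of Rps23, had 0.356, Rpl39l, the form known from male germ cells, 0.888, Rps27rt 2.20 and Rpl37rt 4.81. Values of near-identical copies are uncertain, because the quantification divides reads that match several transcripts.

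The members varied together across the 18 libraries. Among the 77 members at 100 CPM or more on average, the first principal component of log2 CPM held 82.7% of the variance. Over all 86 tested members, the median correlation of a member with the mean of the others was 0.904 over 18 libraries, and 71 members were above 0.8. These points share libraries and scaling, so the values are a description. The members with the lowest correlation were Rps23rg1 at -0.10, Rpl10 at 0.0826, Rpl37rt at 0.106, Rpl39l at 0.129, Rpl3l at 0.186 and Rps27rt at 0.262. All but Rpl10 are scarce copies. Rpl10 is a full-level member at 368 CPM, encoded on the X chromosome, that joins the large subunit late in its assembly. The lowest SD of log2 CPM over the libraries was 0.106 for Rpl7l1, a copy of Rpl7 with a role in ribosome biogenesis, followed by Rpl35a at 0.109, Rps13 at 0.111, Rplp2 at 0.112 and Rps29 at 0.116. The highest SDs belonged to the scarce copies, from 0.594 for Rpl3l and 0.449 for Rpl39l to 0.298 for Rps23rg1, 0.294 for Rpl37rt and 0.287 for Rps27rt.

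**Figure D2:**
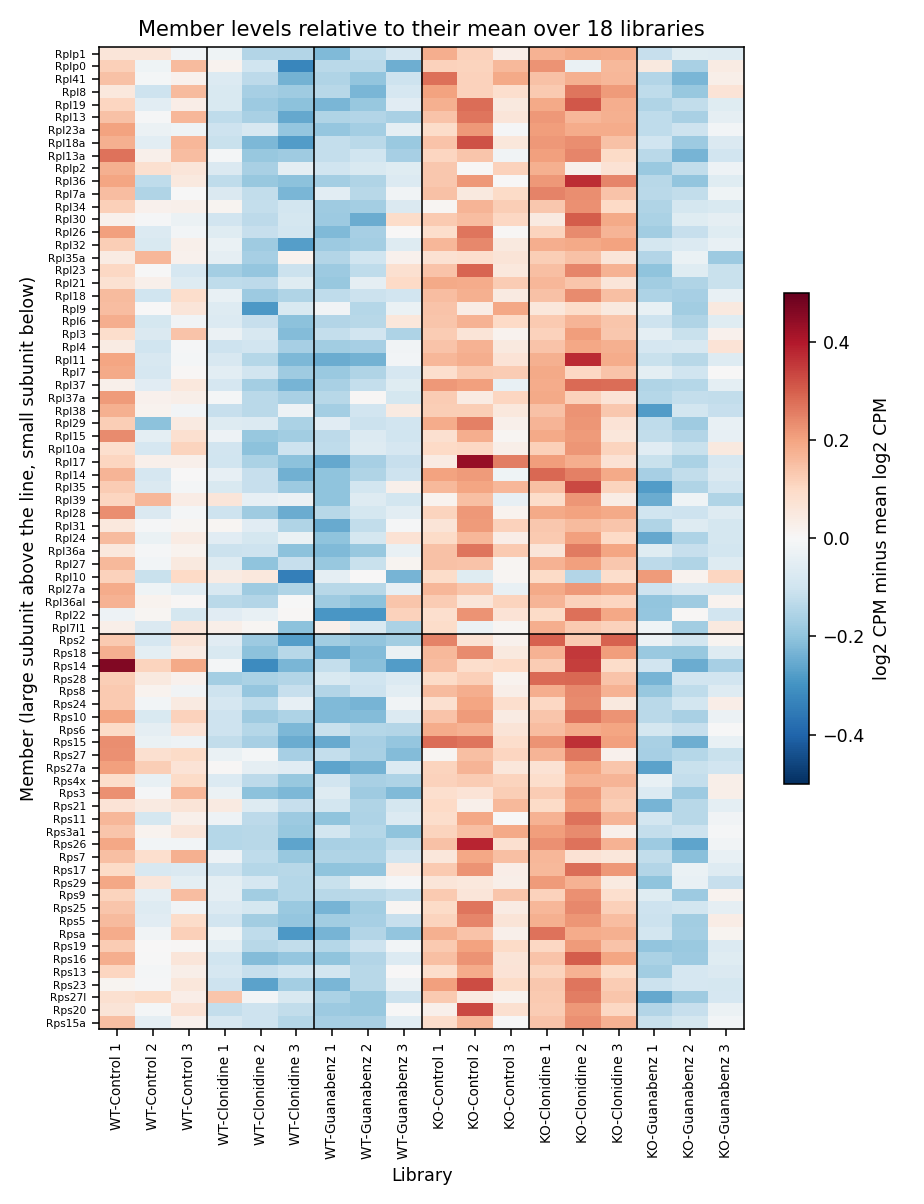
Log2 CPM minus its mean over the 18 libraries for the 77 members at 100 CPM or more, 1 row per member and 1 column per library. Most rows are above their mean in the KO-Control and KO-Clonidine columns and below it in WT-Clonidine, WT-Guanabenz and KO-Guanabenz; Rpl10 does not follow the others.

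A first test asked which genes differed among the 6 groups at all. In edgeR's quasi-likelihood F test with Benjamini-Hochberg adjustment over 16125 genes, 51 of the 86 tested members changed at an adjusted p under 0.05, against 2.02% of all genes. They made up 15.6% of the 326 genes called. By subunit, 27 of 34 small-subunit and 24 of 52 large-subunit members were called, and the difference between these shares was not tested. Of the 77 members at 100 CPM or more 50 were called, and of the 9 below that level only Rps12 was. A tract was present in 30 of 37 called members with a promoter window and in 24 of 29 not called.

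The smallest p belonged to Rps28, a small protein at the mRNA exit of the small subunit. Its libraries stood at 640, 608 and 597 CPM in WT-Control and 627, 637 and 595 in KO-Control, at 523, 526 and 530 in WT-Clonidine and 714, 717 and 648 in KO-Clonidine, and at 557, 548 and 560 in WT-Guanabenz and 499, 550 and 550 in KO-Guanabenz (adjusted p = 0.0197, edgeR). Its highest libraries were the 3 of KO-Clonidine, and all libraries of WT-Clonidine, WT-Guanabenz and KO-Guanabenz were below all controls. Next came Rpl13, at 1323 ± 85.5 CPM (SD, n = 3) in WT-Control and 1372 ± 99.5 in KO-Control, 1085 ± 49.5 in WT-Clonidine and 1398 ± 25.4 in KO-Clonidine, and 1106 ± 5.74 in WT-Guanabenz and 1138 ± 48.5 in KO-Guanabenz (edgeR adjusted p = 0.0203). Rps15, Rps6 and Rps16 completed the 5 smallest p, each with an edgeR adjusted p of 0.0203. Rps6 is the substrate by which S6 kinase activity is usually read. It had 1178 ± 60.6 CPM in WT-Control and 1263 ± 58.2 in KO-Control, 1027 ± 42.8 in WT-Clonidine and 1296 ± 21.0 in KO-Clonidine, and 1043 ± 13.6 in WT-Guanabenz and 1093 ± 45.6 in KO-Guanabenz. In Rps15, Rps6 and Rps16 alike, all libraries of WT-Clonidine and WT-Guanabenz lay below all WT-Control libraries, and all of KO-Guanabenz below all of KO-Control.

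Members with named roles divided between called and not called. Of the stalk, Rplp1 changed (edgeR adjusted p = 0.0236), whereas Rplp0 (0.132) and Rplp2 (0.0750) did not pass. Rpsa, the small-subunit protein also known as the laminin receptor precursor, changed (0.0262), as did Rps27a, made as a fusion with ubiquitin (0.0252). Of the proteins that with 5S rRNA restrain Mdm2, Rpl11 changed (0.0339) and Rpl5 did not pass (0.261). Of the parents of duplicated genes, Rps4x (0.0262), Rps27 (0.0312) and Rpl36a (0.0210) changed, and Rpl3 (0.0797), Rpl10 (0.665), Rpl22 (0.158), Rpl39 (0.124), Rpl7 (0.0566) and Rpl26 (0.0964) did not pass. Of the duplicates, Rps27l, a p53-responsive copy of Rps27, changed (0.0286), and Rpl22l1 (0.0943), Rpl36al (0.208), Rpl7l1 (0.342), Rpl39l (0.229) and Rpl3l (0.321) did not.

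The count of 51 moved with the processing and with single libraries. The share of all genes called moved too. Scaling by total counts gave 4 called members (0.49% of all genes). An offset for each library's trend with transcript length, added after the data were seen, gave 1, Rps16, among 51 genes called in all (0.316%). With 1 library left out there were 0 called members without WT-Clonidine 2 (0.0372% of all genes). There were 5 without KO-Guanabenz 1 (0.248%) and 10 without WT-Guanabenz 2 (0.409%). The count was 13 without WT-Clonidine 3 (0.484%), 16 without KO-Clonidine 3 (0.626%), 21 without KO-Control 2 (0.769%) and 23 without KO-Clonidine 1 (0.769%). It was 24 without KO-Clonidine 2 (1.23%) or KO-Guanabenz 2 (0.726%). It was 32 without KO-Control 3 (0.918%), WT-Control 3 (1.13%) or WT-Guanabenz 1 (1.38%). Without KO-Control 1 (1.4%) or WT-Clonidine 1 (0.825%) it was 33.

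In WT hosts clonidine-treated tumours had lower levels of nearly all members than controls, with a median log2 difference of -0.16 over 86 members and 0.00 over all tested genes. The median was -0.16 for the large and -0.19 for the small subunit, and 83 of 86 differences were below 0. The exceptions were Rpl22, Rps27rt and Rps23rg1. edgeR called no member (0% of all genes). At an unadjusted p under 0.05, 57 members were lower, against 6.91% of all genes. All WT-Clonidine libraries lay below all controls for 53 members, against 9.81% of all genes.

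The smallest p in this comparison belonged to Rps14, a small-subunit protein near the decoding platform whose loss underlies the anaemia of 5q- syndrome. It stood at 1629, 1276 and 1347 CPM in WT-Control and at 1172, 950 and 1010 in WT-Clonidine. The groups did not overlap, and WT-Control 1 was the highest. The log2 difference was -0.44 (SE 0.0955, adjusted p = 0.103 in edgeR). Rpl13 had 1362, 1224 and 1381 CPM in the controls and 1126, 1099 and 1030 under clonidine, a log2 difference of -0.285 (SE 0.0625, edgeR adjusted p = 0.104). Rps7, a binding partner of Mdm2, had 1000, 954 and 1018 CPM against 885, 824 and 789, a log2 difference of -0.251 (SE 0.0609, edgeR adjusted p = 0.127). In both genes every treated library was below every control. DESeq2 called 13 members in this comparison (2.55% of the genes it gave an adjusted p) and voom 16 (4.79% of all genes). Without WT-Control 2, edgeR called 3 (0.341% of all genes). Summed T cell markers moved with the treatment, at 44.4 to 58.4 CPM in WT-Clonidine against 26.6 to 36.0 in WT-Control; all 9 were above 0, 8 at an unadjusted p under 0.05, and none was at 0 CPM. Endothelial markers, at 153 to 184 CPM against 127 to 152, and B cell markers, at 5.97 to 7.81 against 4.51 to 5.89, did not overlap either. The part of these cell types in the result was not tested.

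Under guanabenz in WT hosts, measured against the same 3 control libraries, nearly all members were lower too. The median log2 difference was -0.17 (0.01 over all tested genes), -0.16 for the large and -0.21 for the small subunit, and 85 of 86 members were below 0, all but Rpl37rt. edgeR again called none of them (0% of all genes), 58 were lower at an unadjusted p under 0.05 (6.26% of all genes), and 44 had all treated libraries below all controls (8.19% of all genes). DESeq2 called 9 members (1.38% of the genes it gave an adjusted p) and voom 1 (0.0372% of all genes). Rps27a had 967, 912 and 878 CPM in the controls and 698, 713 and 800 under guanabenz, a log2 difference of -0.318 (SE 0.0655, edgeR adjusted p = 0.141). Rps14 stood at 1088, 1023 and 974 CPM under guanabenz, a log2 difference of -0.46 (SE 0.0955, edgeR adjusted p = 0.141). Rps27 had 490, 443 and 447 CPM against 385, 374 and 360, a log2 difference of -0.302 (SE 0.0673, edgeR adjusted p = 0.167). None of these genes overlapped between the groups. T cell markers summed to 22.1 to 40.9 CPM in WT-Guanabenz, a range that spanned the controls, and fibroblast markers to 6746 to 7054 CPM against 7247 to 9656, whose part was not tested. Most of the fibroblast sum was Col1a1 and Col1a2. Of the fibroblast markers only Pdgfra had a higher mean in WT-Guanabenz than in WT-Control, at 254 against 237 CPM.

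The drugs were compared directly in WT hosts, as 1 pair of compounds, given over the same days at doses the labels do not state. Both carry a dichlorinated phenyl ring. Clonidine has an imidazoline ring beside it, where guanabenz has an open guanidine chain. The median log2 difference, clonidine minus guanabenz, was 0.01, with 38 members below 0 and 48 above. edgeR, DESeq2 and voom called no member (0% of all genes in edgeR), and 2 were higher under clonidine at an unadjusted p under 0.05 (2.57% of all genes), while 3 had all clonidine libraries above all guanabenz libraries (5.33% of all genes). For the 77 members at 100 CPM or more, 75 of the 95% intervals included 0 and 75 lay within ±0.3 on the log2 scale. The median half-width was 0.148, and the bounds ran from -0.247 to 0.311, the latter for Rpl22. Differences smaller than these half-widths could not be resolved. Rps27l had 143, 129 and 123 CPM under clonidine and 117, 114 and 121 under guanabenz, a log2 difference of 0.17 (SE 0.0633, edgeR adjusted p = 0.957), and all clonidine libraries were higher. Rps27a differed by 0.155 (SE 0.0654, edgeR adjusted p = 0.957), also without overlap. Rpl37rt, a scarce copy, differed by -0.376 (SE 0.219, same adjusted p). Between these groups the T cell markers, at the values given above, did not overlap. Nor did endothelial markers, at 153 to 184 CPM under clonidine and 108 to 148 under guanabenz, or skeletal muscle markers, at 148 to 220 and 98.6 to 136 CPM.

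In KO hosts most members were slightly above control under clonidine. The median log2 difference was 0.05 (0.00 over all tested genes), with 15 members below 0 and 71 above. None was called by edgeR (0.0186% of all genes), DESeq2 or voom. At an unadjusted p under 0.05, 1 member was higher (2.74% of all genes) and 6 had all treated libraries above all controls (4.4% of all genes). That member was Rps28, with 714, 717 and 648 CPM against 627, 637 and 595, a log2 difference of 0.161 (SE 0.0558, edgeR adjusted p = 0.865). Rpl36 and Rps27l followed with log2 differences of 0.157 (SE 0.0775) and 0.108 (SE 0.0632), and their groups overlapped. Erythroid markers summed to 403 to 1607 CPM in KO-Clonidine against 143 to 385 in KO-Control, and none of the KO-Clonidine libraries held Y-linked transcripts. The part of either in these values was not tested.

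In KO hosts nearly all members were lower under guanabenz than in control, subject to the label conflict. The median log2 difference was -0.23 (-0.01 over all tested genes), the same to 2 decimals in both subunits, and 84 of 86 members were below 0. Rpl10 and Rps23rg1 were above 0. edgeR called none of the 86 (0.0124% of all genes), while 77 were lower at an unadjusted p under 0.05 (8.37% of all genes) and 75 had all treated libraries below all controls (10.5% of all genes). DESeq2 called 41 members (3.69% of the genes it gave an adjusted p) and voom 31 (2.13% of all genes). edgeR called 1 without KO-Control 1 (0.136% of all genes) and 4 without KO-Guanabenz 3 (0.651%).

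Rps19, the gene most often mutated in Diamond-Blackfan anaemia, stood at 500, 526 and 487 CPM in KO-Control and 398, 401 and 436 in KO-Guanabenz. The log2 difference was -0.293 (SE 0.0591, edgeR adjusted p = 0.0720). Rpl21 had 1151, 1149 and 1102 CPM against 895, 910 and 935, a log2 difference of -0.313 (SE 0.0647, edgeR adjusted p = 0.0729). Neither gene overlapped between the groups. Rpl17, which lines the peptide exit tunnel, had 657, 863 and 762 CPM against 592, 573 and 603, a log2 difference of -0.368 (SE 0.0781, edgeR adjusted p = 0.0800), again without overlap. Rpl10 stood at 425, 371 and 395 CPM under guanabenz and 391, 351 and 370 in KO-Control, overlapping groups with a log2 difference of 0.10. Rpl3l had the lowest difference, -1.19 (SE 0.413, edgeR adjusted p = 0.206), from 0.380, 0.500 and 0.688 CPM to 0.210, 0.139 and 0.341. All 5 skeletal muscle markers were also lower, with a median log2 difference of -1.004 and sums of 37.2 to 96.4 CPM against 102 to 171. Their part in the Rpl3l value was not tested. The summed fibroblast markers did not overlap either, at 8300 to 8729 CPM against 5854 to 8029. Most of the KO-Guanabenz sum was Col1a1 and Col1a2, at means of 3994 and 3809 CPM. Every fibroblast marker had a higher mean in KO-Guanabenz, but Col1a2, Dcn and Lum each overlapped between the groups. For Dcn the means were 395 against 379 CPM.

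**Figure D3:**
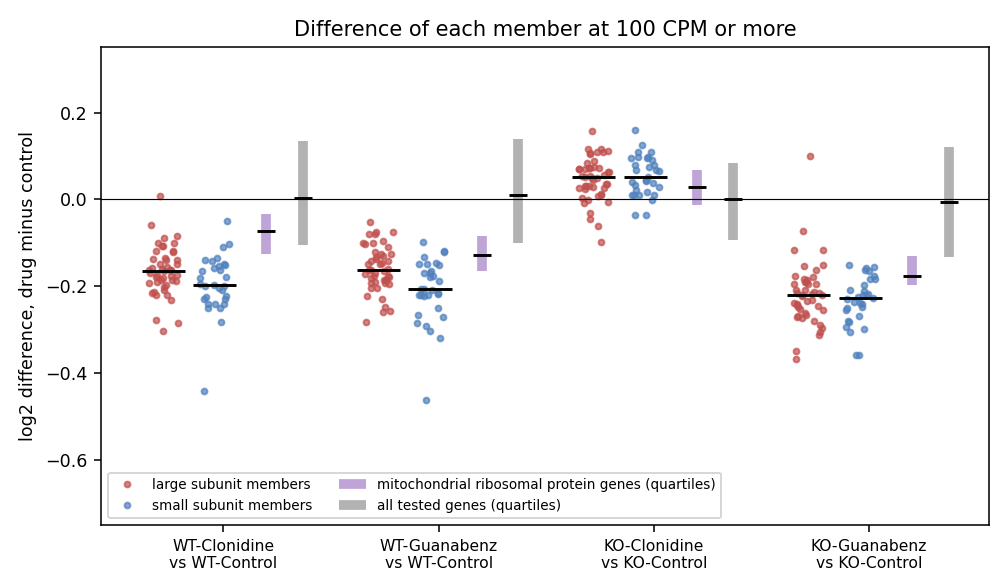
Log2 difference, drug minus control of the same genotype, for each member at 100 CPM or more, with large- and small-subunit members as separate points and their medians as lines; bars give the quartiles of mitochondrial ribosomal protein genes and of all tested genes. Member medians lie below 0 in 3 comparisons, near -0.16 to -0.23, and near 0.05 for KO-Clonidine.

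Between the host genotypes without drug no member passed the test. The median log2 difference, KO-Control minus WT-Control, was 0.07 (0.00 over all tested genes), with 19 members below 0. Reading the KO-Guanabenz libraries as KO-Control, as their treatment entry would have it, turned this median to -0.0348. edgeR called 0.0062% of all genes, and edgeR, DESeq2 and voom called no member. Of the members 5 were higher at an unadjusted p under 0.05 (2.25% of all genes), and 9 had all KO libraries above all WT libraries (4.56% of all genes). Rps23, at the decoding centre, had 338, 368 and 313 CPM in KO-Control and 296, 292 and 305 in WT-Control, a log2 difference of 0.192 (SE 0.0681, edgeR adjusted p = 1). Rpl17 and Rpl36a followed with 0.199 (SE 0.0780) and 0.161 (SE 0.0635).

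Whether clonidine acted differently in the 2 genotypes was tested as the difference of the differences, WT minus KO. The median was -0.21 (0.00 over all tested genes), 83 of 86 members were below 0, and 69 members were lower than control in WT and higher in KO. In edgeR none was called (0% of all genes), and 44 were below 0 at an unadjusted p under 0.05 (4.87% of all genes). DESeq2 called 1 (0.23% of the genes it gave an adjusted p) and voom none (0.0124% of all genes). Rps28 was first, at -0.385 (SE 0.0790, edgeR adjusted p = 0.303). Rps14 had -0.52 (SE 0.135, adjusted p = 0.381) and Rpl13a, which also takes part in transcript-selective translation control in myeloid cells, -0.382 (SE 0.102, adjusted p = 0.395). Rpl13a stood at 1270 ± 107 and 1048 ± 75 CPM in WT-Control and WT-Clonidine and at 1204 ± 67.2 and 1295 ± 69.0 in KO-Control and KO-Clonidine (SD, n = 3). The median was -0.12 under total-count scaling and -0.13 with the length offset.

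For guanabenz the same test gave a median of 0.06 (0.01 over all tested genes), with 24 members below 0. Neither edgeR (0.0062% of all genes) nor DESeq2 or voom called a member, and 2 were above 0 at an unadjusted p under 0.05 (3.13% of all genes). The smallest p were those of Rpl21 at 0.26 (SE 0.0914), Rpl35 at 0.246 (SE 0.106) and Rpl23 at 0.209 (SE 0.108), with edgeR adjusted p from 0.866 to 0.881. These genes were below control in both genotypes, and less so in WT than in KO hosts.

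**Figure D4:**
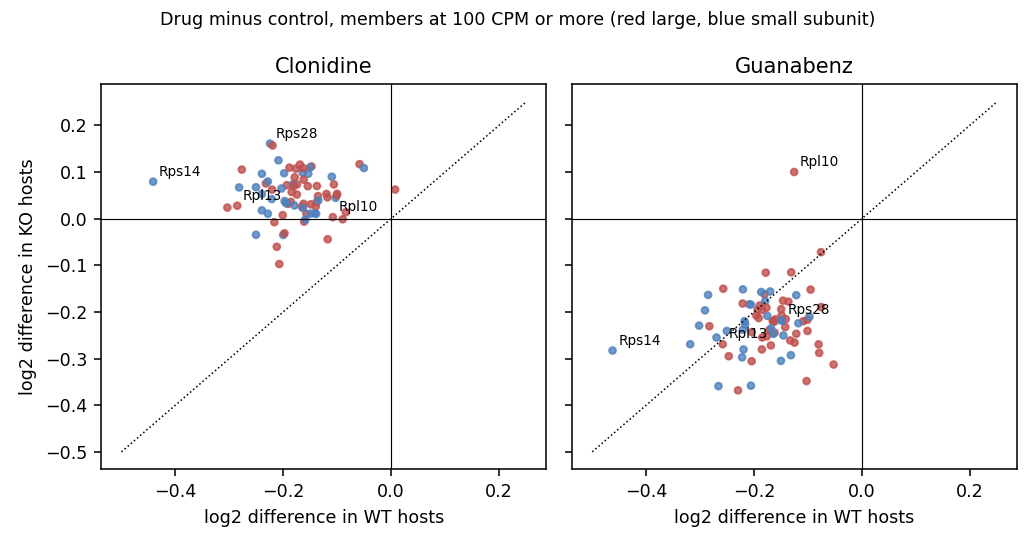
Log2 difference from control in WT hosts (x axis) against KO hosts (y axis) for each member at 100 CPM or more, clonidine and guanabenz in separate panels, with a dotted line of equality. Under clonidine nearly all points lie left of 0 and most above 0, whereas under guanabenz nearly all lie below 0 on both axes; the controls are shared between panels.

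Since nearly all members were lower under guanabenz in both genotypes, its difference from control was also averaged over WT and KO, a comparison added after the data were seen. The same values prompted this average, so its calls describe these libraries and are no separate support. It includes the KO-Guanabenz libraries, with the label conflict given above. On this average 43 members fell in edgeR (adjusted p under 0.05), against 1.57% of all genes called lower and 2.05% called in either direction. At an unadjusted p under 0.05, 79 were lower (10.7% of all genes), with a median of -0.20 over 86 members and 84 below 0. They were 24 of 34 small-subunit and 19 of 52 large-subunit members. The smallest p were those of Rps27a, which fell by 0.29 on the log2 scale (SE 0.0463), Rps7, which fell by 0.26 (SE 0.0431), and Rpl13, which fell by 0.26 (SE 0.0442), each with an edgeR adjusted p of 0.0182. Of the members called here, 37 were also among those that differed among the 6 groups, which is 37 of 43 and 37 of 51; both tests use the same libraries. For clonidine the same average was -0.06, no member was called in edgeR (0% of all genes), DESeq2 or voom, and 10 were lower at an unadjusted p under 0.05 (4.78% of all genes).

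The averaged guanabenz count also depended on single libraries and on scaling. Omitting KO-Guanabenz 1, KO-Guanabenz 2 or WT-Control 1 left 0 called members, and each left 0% of all genes called. Omitting WT-Guanabenz 2 left 5 (0.26% of all genes) and WT-Guanabenz 1 left 10 (0.515%). The count was 18 without WT-Control 3 (0.682%), 20 without KO-Control 2 (1.2%) and 68 when WT-Guanabenz 3 was omitted (6.71%). It was 25 under total-count scaling (1.52%) and 0 in a fit of the 4 compared groups alone (0%). It was also 0 with the transcript length offset (0.0372%), under which the median was -0.0909.

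Transcript length moved with these differences across the whole transcriptome, and the members are short, with a median of 764 bases. In WT-Clonidine the median log2 difference ran from -0.05 in the shortest quintile of transcript length to 0.05 in the longest. The span was -0.08 to 0.09 in WT-Guanabenz and -0.11 to 0.09 in KO-Guanabenz, and 0.01 to 0.00 in KO-Clonidine. Genes of the shortest quintile, up to 1514 bases, made up 175 of the 326 genes called among the 6 groups. That is 175 of 3176 tested genes of this length, against 2.02% of all tested genes. The 175 include the called members of this length. With the length offset, which was fitted on genes outside the set, the members' medians were -0.12 in WT-Clonidine, -0.0695 in WT-Guanabenz, 0.02 in KO-Clonidine and -0.11 in KO-Guanabenz. In the same order 79, 76, 31 and 83 of 86 members were then below 0.

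**Figure D5:**
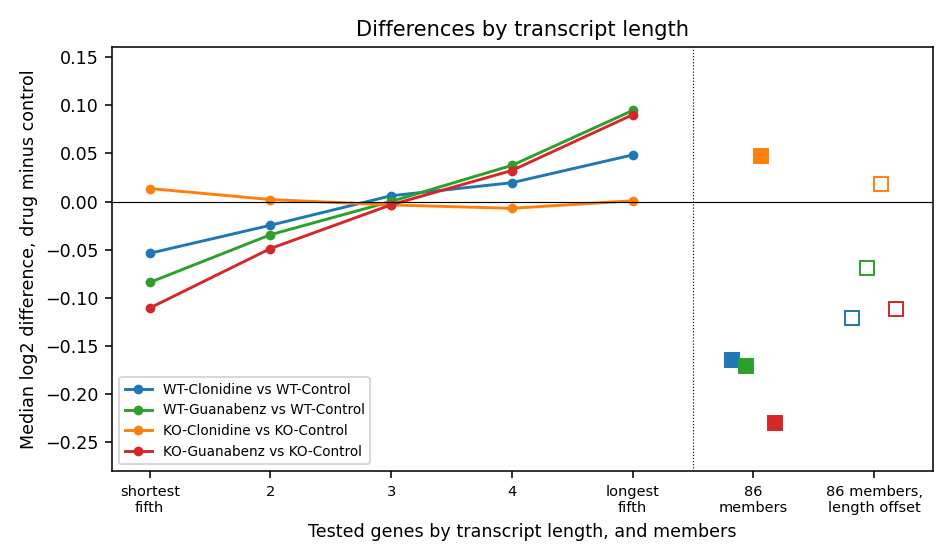
Median log2 difference from control by quintile of transcript length over all tested genes with a length, with filled squares for the 86 members and open squares for the members after the length offset. In WT-Clonidine, WT-Guanabenz and KO-Guanabenz the line climbs from short to long transcripts and the filled squares lie below its value in the shortest quintile.

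Genes that work beside the ribosomal proteins were grouped in lists, with medians of the log2 difference from control given for WT-Clonidine, WT-Guanabenz, KO-Clonidine and KO-Guanabenz, in this order. For 78 mitochondrial ribosomal protein genes the median log2 differences were -0.07, -0.13, 0.03 and -0.18, and 2 (2.56%) were called among the 6 groups, against 2.02% of all genes. The 22 translation factors whose mRNAs also carry a TOP tract had -0.15, -0.16, 0.03 and -0.18. Eef1b2, Eif3k and Naca were among those that changed over the 6 groups. Eef1b2, a subunit of the exchange factor that recharges Eef1a1, stood at 703 ± 21.5 CPM in WT-Control and 585 ± 21.5 in WT-Clonidine (log2 difference -0.265, edgeR adjusted p = 0.131, n = 3). Rack1, a scaffold on the small subunit, stood at 1389 ± 173 and 1112 ± 77.8 CPM (-0.321, adjusted p = 0.147, edgeR, n = 3).

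Of 66 tested genes for ribosomal RNA synthesis and processing, 3 changed among the 6 groups (4.55%, against 2.02% of all genes): Fbl, the nucleolar methyltransferase, Nhp2 of the H/ACA particles, and Rrp1. Their list had medians of -0.05, -0.06, 0.04 and -0.11. The 16 import and assembly chaperones had -0.02, 0.00, 0.09 and 0.03, and none was called. Of 17 transcription factors none was called either, in both lists against 2.02% of all genes. In the list of 21 genes of mTOR and Larp1 control, medians were -0.02, 0.02, 0.04 and -0.04, and 3 of them (14.3%, against 2.02% of all genes) changed: Eif4ebp1, Ddit4 and Pdcd4. Larp1 itself had 379 ± 12.3 CPM in WT-Control and 378 ± 7.44 in WT-Clonidine.

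Eif4ebp1, the translation repressor that mTOR inactivates, had 120, 122 and 142 CPM in WT-Control and 94.5, 89.0 and 90.5 in WT-Clonidine, without overlap (log2 difference -0.485, edgeR adjusted p = 0.0768). Its means were 104 ± 3.08 in WT-Guanabenz, 142 ± 17.5 in KO-Control, 131 ± 10.0 in KO-Clonidine and 122 ± 11.1 in KO-Guanabenz. Ddit4, a stress-induced inhibitor of mTOR, had 181, 138 and 181 CPM in WT-Control and 96.9, 107 and 108 in WT-Clonidine (log2 difference -0.682, edgeR adjusted p = 0.0992). All treated libraries were below the controls. Of 10 genes of ribosomal stress and p53, only Phlda3 changed among the 6 groups, against 2.02% of all genes. Cdkn1a stood at 55.8 ± 6.73 CPM in WT-Control and 37.8 ± 3.30 in WT-Clonidine (edgeR adjusted p = 0.325, n = 3). Only 1 of 14 snoRNA host genes, Snhg4, was in the tested set, and it was not called.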

How the data were processed

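RNA from 18 tumour libraries was quantified by the authors. Per the submitters' processing notes the tools were Trim Galore 0.6.5 and kallisto 0.46.0 with GRCm38. The deposited values are whole-number estimated counts per Entrez gene; how transcripts were summed to genes and whether strand was kept are not given in the sources used here. Of 21015 identifiers, 20994 matched a RefSeq symbol of GRCm38.p6; the other 21 held at most 0.0216% of counts. Groups came from the sample titles.

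Genes were kept with filterByExpr (16125), scaled by TMM and fitted in edgeR 4.0.16 (R 4.3.3) with 6 group means over all 18 libraries (12 residual degrees of freedom, biological coefficient of variation 0.145). Quasi-likelihood tests, two-sided, were adjusted by Benjamini-Hochberg over all tested genes in each comparison, with a threshold of 0.05. CPM are TMM-scaled; log2 CPM used a prior count of 2. Lengths are medians over GENCODE M21 coding transcripts. The highest correlation between 2 libraries was 0.9986, so none was treated as a repeat.

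Members and lists were chosen with earlier results of these data known. Named members are the 3 with the smallest p in each comparison, the 5 smallest over the 6 groups, stalk, Mdm2-binding and duplicated genes with their parents, and the extremes of level and spread; of other lists, the 2 smallest p under clonidine in WT. Other genes named, among them Rpl10, Rps12 and the called members of the lists, were chosen with their values in view. The alternatives tried were DESeq2 1.42.0, voom in limma 3.58.1, other scalings and filters, a replicate block, omitted libraries and other readings of KO-Guanabenz; a Y-linked term, the length offset and the averaged contrasts were added after seeing the data. The fit was tested on simulated data.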

Additional observations from a re-analysis of the deposited data

Results flagged for a closer look

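Relative to the control mean of their genotype, the clonidine libraries lay on opposite sides in WT and KO hosts. The median member's log2 deviation from the control mean of the same genotype was -0.12, -0.19 and -0.21 in the 3 WT-Clonidine libraries and 0.03, 0.10 and 0.02 in the 3 KO-Clonidine libraries, a difference of means of -0.223. Every WT library lay below its controls' mean and every KO library above. This difference between libraries was not tested. The KO-Clonidine libraries overlapped the KO-Control libraries, with median deviations from the mean over all 18 libraries of 0.14 to 0.22 and 0.06 to 0.18, and under total-count scaling the KO median was 0.0109. The test of each member's difference called none of 86 in edgeR (0% of all genes), with 44 below 0 at an unadjusted p under 0.05 (4.87%). DESeq2 called 1 (0.23% of the genes it gave an adjusted p) and voom none (0.0124% of all genes).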

How the results depend on the processing

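Medians kept their direction in every alternative for the 4 drug-against-control comparisons, the clonidine and guanabenz differences between genotypes, and the drug averages. The other readings of KO-Guanabenz were not applied to comparisons that use those libraries as guanabenz. Shares of all genes called are given in brackets, for DESeq2 of the genes it gave an adjusted p. Called members in WT-Clonidine numbered 13 in DESeq2 (2.55%) and 16 in voom (4.79%). With 1 library left out they numbered 0 to 3 (0% to 0.341%). In WT-Guanabenz DESeq2 and voom called 9 (1.38%) and 1 (0.0372%). In KO-Guanabenz they called 41 (3.69%) and 31 (2.13%), and edgeR 0 to 4 with 1 library left out (0% to 0.651%). For the clonidine difference between genotypes DESeq2 called 1 (0.23%). With the transcript length offset the medians were -0.0695 in WT-Guanabenz, -0.11 in KO-Guanabenz, -0.13 for the clonidine difference and -0.0909 for averaged guanabenz. Total-count scaling gave -0.12 for the clonidine difference. With KO-Guanabenz read as KO-Control the medians were 0.16 in KO-Clonidine, -0.0348 between controls and -0.32 for the clonidine difference. Clonidine minus guanabenz in WT, 0.01 as reported, lay between -0.04 and 0.03 over its alternatives.

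The count over the 6 groups was 51 (2.02% of all genes). It was 4 under total-count scaling (0.49%) and 21 without the KO-Guanabenz libraries (0.837%). With those libraries read as KO-Control it was 0 (0.031%). A Y-linked term gave 32 (1.49%) and the length offset 1 (0.316%). With 1 library left out the count was 0 to 61 (0.0372% to 3.26%). DESeq2 called 76 (14% of the genes it gave an adjusted p) and voom 74 (9.23% of all genes). The averaged guanabenz count was 43 (2.05% of all genes). It was 25 under total-count scaling (1.52%), 0 with only the compared groups (0%) and 0 with the length offset (0.0372%). DESeq2 called 71 (9.93% of the genes it gave an adjusted p) and voom 77 (9.95% of all genes). With 1 library left out the count was 0 to 68 (0% to 6.71%). Beyond fewer samples in some fits, the cause was not tested. Of 1430 alternatives for the tests of named members, 1266 kept direction and side of the threshold, 123 fell short of it, 41 newly passed and 0 reversed.

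Replicate numbers did not pair the samples: correlations of deviations between same-numbered libraries ran from -0.33 to 0.25 (median 0.0104, 45 pairs). With the replicate block 28 members were called over the 6 groups (0.98% of all genes) and 33 for averaged guanabenz (1.31%). For scarce copies such as Rpl3l, depth limited the precision.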
